A study of Mus musculus with 18 samples.

Results

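The m5C sites described here were cytosines of mRNA that were called in all 3 libraries labelled OGD/R 1.5 h and in none of the 3 control and 3 OGD/R 3 h libraries. A site was a position on 1 strand, and it counted as an mRNA site where an exon of a protein-coding RefSeq transcript covered it on the same strand. Of 18059 mRNA sites of the 9 libraries, 631 sites in 439 genes met the rule. They were 49.6% of the 1271 mRNA sites called in all 3 OGD/R 1.5 h libraries, and 8.93% of the 7066 called in any of them. Sites chosen in the same way for the other groups numbered 1020 for control, 56.4% of the 1810 sites called in all 3 libraries and 14.9% of the 6825 called in any. For OGD/R 3 h they numbered 1858, 72.5% of 2563 and 22.4% of 8280. The sites were chosen by the presence and absence of calls in these 9 libraries, so these shares are given as a description, with no test.

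5-methylcytosine in mRNA is written mainly by the methyltransferases NSUN2 and NSUN6, and it can be bound by readers such as ALYREF, which takes part in mRNA export. NSUN2 sites are known to be followed by a run of guanines, and NSUN6 sites lie in a CUCCA motif. Bisulfite turns cytosine into uracil and leaves the methylated base, so an unconverted cytosine in a read counts as methylated. Cytosines in paired stretches of RNA are also harder to convert.

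All groups came from cells described as cortical neurons of C57BL/6 mice at embryonic day 18. Control cells were untreated, and the other cells were deprived of glucose and oxygen for 1.5 h or 3 h and then returned to normal medium and air for 24 h. The gas is given as 94% N2, 21% O2 and 5% CO2, which cannot all hold at once. Total RNA was depleted of rRNA, treated with bisulfite and sequenced from a stranded library, and 3 libraries of each group were used. The labels do not say whether these came from separate cultures, and the study's supplement speaks of replicates of sequencing pools. SDs over libraries may therefore be technical.

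The label was set beside lists of marker genes, which were written with earlier results of these data known. None of 23 neuronal genes, among them Tubb3, Map2 and Snap25, carried an mRNA site in any of the 9 libraries. Of 36 genes of the intestinal epithelium, 29 carried a site in a control library, 24 in an OGD/R 1.5 h library and 33 in an OGD/R 3 h library. Over all 21013 annotated protein-coding genes, 1804, 1746 and 1447 carried a site in the same order. In each library these intestinal genes held 147 to 156 sites for control, 91 to 100 for OGD/R 1.5 h and 302 to 336 for OGD/R 3 h. Of the glial, erythroid and neutrophil genes, only Aldh1l1 of the astrocyte and oligodendrocyte list carried a site in OGD/R 1.5 h, and none carried one of the 631 sites. In each OGD/R 3 h library, erythroid genes held 31 sites and neutrophil genes 21, in 2 and 3 genes, while neither list had a site in control. Smooth muscle and fibroblast genes with a site numbered 5 in control, 4 in OGD/R 1.5 h and 5 in OGD/R 3 h. The samples are called here by their labels, and the part of other cell types in what follows was not tested.

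The OGD/R 1.5 h libraries held 3508, 3556 and 3749 mRNA sites, of which the 631 sites made up 18.0%, 17.7% and 16.8%. The control libraries held 3800 to 4146 mRNA sites and the OGD/R 3 h libraries 4733 to 5269. OGD/R 1.5 h libraries shared the fewest sites with each other, 44.4% to 48.1% of either list of a pair, against 55.6% to 60.7% in control and 57% to 65.9% in OGD/R 3 h. Read depth per library is unknown. In place of a methylation level the files give each call a score, a whole number from 0 to 1000 whose formula, and with it any scaling to depth, is not given in the sources used here.

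The sites with the highest scores are shown with their surroundings. Since the formula of the score is not given, a higher score is not known to mean a stronger call. Each line gives the 10 bases before and after the site, read 5′ to 3′ on the gene's strand from the RefSeq GRCm38.p6 (mm10) genome, with the site itself as the capital letter.
Calr (chr8:84842700-84842720, minus strand): aagatgaggaCgaagaagatg
Canx (chr11:50297298-50297318, minus strand): aagagaagaaCaagagggatg
Rrbp1 (chr2:143990042-143990062, minus strand): aaggagaaaaCcgtggagaag
Apoa1 (chr9:46230035-46230055, plus strand): cgcctctgggCgccgagctgc
Krt20 (chr11:99429004-99429024, minus strand): aggtcgtgtcCtctgaagtca
Apoa4 (chr9:46242975-46242995, plus strand): cctgaacaggCagctggagca
Lgals2 (chr15:78850911-78850931, minus strand): cctttagggtCtgtgcttttc
Hsp90b1 (chr10:86691647-86691667, minus strand): gatgcagggaCagaagaagaa
Coro2a (chr4:46539081-46539101, minus strand): ccgataggctCtgtggagaga
Anapc5 (chr5:122817874-122817894, minus strand): gtggaagatgCtgatatggac
The sites upstream of the start codons of Atp1b1 and Homer2 are shown as examples of low scores.
Atp1b1 (chr1:164458080-164458100, minus strand): cgcgcgcgccCtcctccctcg
Homer2 (chr7:81706776-81706796, minus strand): cccgtcggagCggccgcacga

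The 10 highest-scoring sites, at most 1 per gene, lay in 10 mRNAs of differing function. Calr encodes calreticulin, a calcium-binding chaperone of the reticulum, and its site at chr8:84842710, 61 nt before the stop codon, had a score of 1000 in each of the 3 libraries. Canx encodes calnexin, the membrane-bound relative of calreticulin, and its coding site at chr11:50297308 also had 1000 in each. Rrbp1, a ribosome-binding protein of the reticulum membrane, had 1000 in each library at chr2:143990052, 193 nt after the start codon. All 9 of these scores were at the highest value a file can hold, so the sites cannot be ranked. Hsp90b1, the Hsp90 chaperone of the same compartment, had 554, 729 and 839 at chr10:86691657, 53 nt before the stop codon. In the windows printed above, 18 of the 20 bases around the Calr, Rrbp1 and Hsp90b1 sites and 19 around the Canx site were adenine or guanine, and each window held at most 1 other cytosine. The other windows were less rich in these bases, with 6 in Lgals2, 9 in Apoa1, 10 in Krt20, 13 in Apoa4 and in Coro2a and 14 in Anapc5, and the Apoa1 window held 8 other cytosines.

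Apoa1, the main protein of high-density lipoprotein, had 975, 1000 and 1000 at chr9:46230045 in the coding sequence. Apoa4, an apolipoprotein made by the small intestine, had 980, 807 and 801 at chr9:46242985. Krt20, a keratin of differentiated intestinal epithelium, had 1000, 990 and 889 at chr11:99429014, 31 nt before the stop codon. Lgals2, a galectin of the gut, had 598, 877 and 752 at chr15:78850921, 88 nt after the first base of the stop codon. These 4 genes are known to be expressed in the intestine, which was noticed after their values had been seen, and 3 of their sites had a control site close by: 2 nt away in Apoa1 and in Krt20 and 3 nt away in Apoa4. The nearest control site of Calr was 38 nt away and that of Canx 210 nt away.

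Coro2a, an actin-binding coronin, had 434, 490 and 538 at chr4:46539091, 47 nt after the first base of the stop codon. Anapc5, a subunit of the anaphase-promoting complex, had 348, 449 and 460 at chr5:122817884 in its coding sequence, with no control or OGD/R 3 h site in the gene. The 10 sites kept their order only in part between libraries, and the range within a site was widest in Hsp90b1 and Lgals2.

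**Figure D1:**
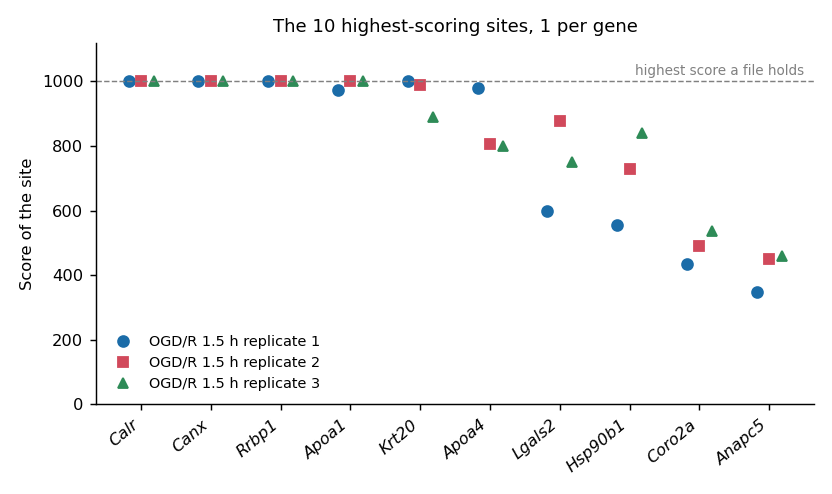
Score (vertical axis, no unit, 0 to 1000) of the 10 highest-scoring sites found only in OGD/R 1.5 h, at most 1 per gene, with 1 point for each of the 3 libraries. Calr, Canx and Rrbp1 sat at 1000 in each library, and Anapc5, the lowest of the 10, ranged from 348 to 460.

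Most of the 631 sites had far lower scores. Their median score was 8, 9 and 9 in the 3 libraries (8.67 ± 0.577, SD, n = 3 libraries). The 640 mRNA sites that were called in the same 3 libraries and also elsewhere had medians of 26.5, 27 and 28 (27.2 ± 0.764), and the 107 sites called in all 9 libraries had 663, 692 and 604 (653 ± 44.8). No library of one set overlapped with another set. The median over the 3 libraries was under 10 in 346 of the 631 sites, 10 to under 100 in 215 and at least 100 in 70. A score of at least 10 in each library was reached by 163 sites. Scores of 1 site differed between libraries by a median ratio of 3.75 from highest to lowest, with 1 added to each, so that a single low score carries little precision.

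The share of reproducible OGD/R 1.5 h sites that were called nowhere else fell with the score. Of the sites called in all 3 libraries with a median score under 5, 68.6% (234 of 341, 95% Wilson interval 63.5% to 73.3%) were absent from the other 6 libraries. At scores of 10 to under 50 the share was 46.8% (170 of 363, 41.8% to 52.0%), and at 100 to under 500 it was 36.5% (62 of 170, 29.6% to 43.9%). Above 500 it was 8.99% (8 of 89, 4.63% to 16.7%), and the genes of those 8 sites were the first 8 printed above. All intervals here cover counting error only and take sites as independent, although sites of one mRNA can share reads. Since these calls chose the sites, no test was made.

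**Figure D2:**
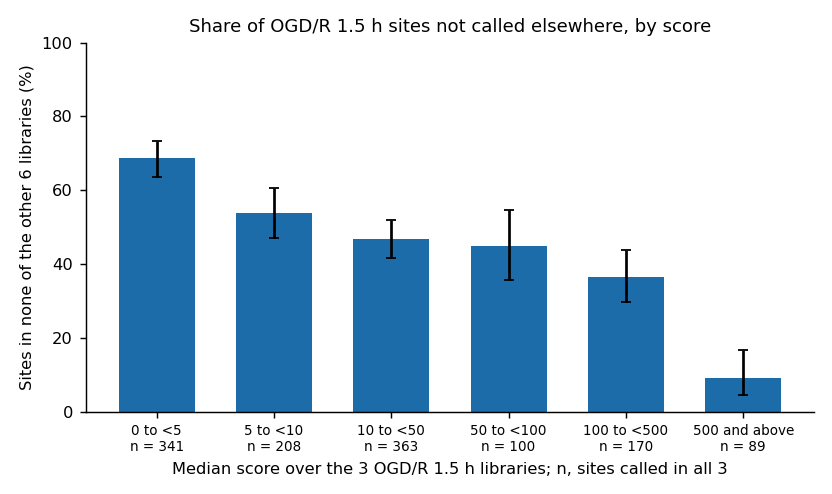
Share (%) of the mRNA sites called in all 3 OGD/R 1.5 h libraries that were called in none of the 6 control and OGD/R 3 h libraries, by median score, with 95% Wilson intervals as bars and the number of sites below each column. The share was 68.6% at scores under 5 and 8.99% at scores of 500 and above.

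At the edge of the rule, sites with the lowest scores included those of Tjap1 (0, 2 and 0 at chr17:46264906) and Cyb5a, a cytochrome of the reticulum (0, 3 and 0), both just upstream of the start codon. In 17 sites the median score was 0. Just outside the rule were 127 sites called in all 3 OGD/R 1.5 h libraries and in exactly 1 other library, with a median score of 10 and a median of 8 in that library. Among the highest were coding sites of Apoa1 (1000, 1000 and 991, with 646 in control replicate 3) and of Ace (484, 601 and 698, with 360 in control replicate 2). A further 641 sites were called in 2 OGD/R 1.5 h libraries and nowhere else, and 3079 in 1 library only.

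Along the mRNA, the sites were densest at the start codon. Of the 631 sites, 303 (48.0%, 44.1% to 51.9%) lay within 100 nt of the start codon, 83 (13.2%, 10.7% to 16.0%) further upstream in the 5′ untranslated region (UTR), 198 (31.4%, 27.9% to 35.1%) in the rest of the coding sequence, 18 (2.85%, 1.81% to 4.46%) within 100 nt of the stop codon and 29 (4.60%, 3.22% to 6.52%) in the rest of the 3′ UTR. The 394297 cytosines of the same transcripts were spread otherwise, with 6.48% near the start codon and 30.5% in the 3′ UTR. Per 1000 cytosines there were 11.9 sites near the start codon, 4.15 in the 5′ UTR, 0.961 in the coding sequence, 0.800 near the stop codon and 0.241 in the 3′ UTR. The 100 nt before the start codon held 11.3 sites per 1000 cytosines and the 100 nt from its first base on held 12.4. The density was 6.55 in the following 100 nt and 1.08 in the next. With 50 nt instead of 100 nt around the codons, 29.5% lay near the start codon and 20.3% in the 5′ UTR. With calls in at least 2 of the 3 libraries there were 1272 sites in 752 genes, of which 32.1% lay near the start codon, 8.10% in the 5′ UTR and 49.1% in the coding sequence.

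**Figure D3:**
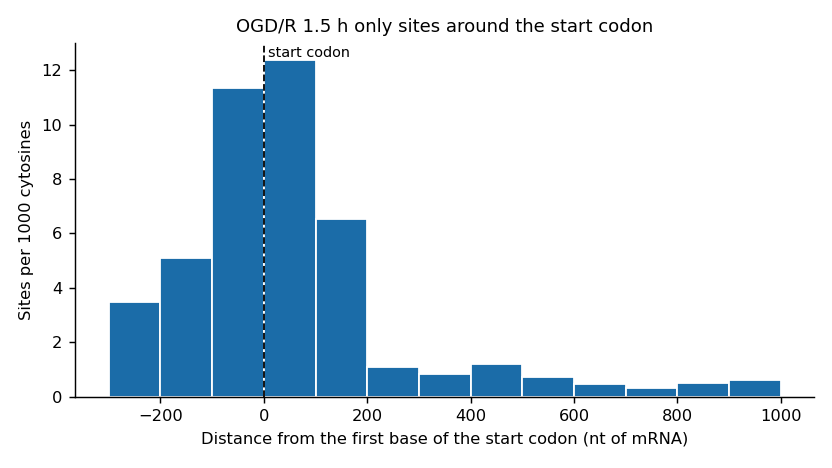
Number of OGD/R 1.5 h only sites per 1000 cytosines of the same transcripts (vertical axis) in bins of 100 nt from the first base of the start codon (horizontal axis, nt of mRNA, dashed line at 0). The bins on either side of the start codon held 11.3 and 12.4 sites per 1000 cytosines.

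Sites found only in control and only in OGD/R 3 h were spread in a similar way. The start codon region held 51.0% of the control sites and 56.5% of the OGD/R 3 h sites, and the rest of the coding sequence held 26.3% and 21.5%. No test was made between these sets, since each is 1 set per group.

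High and low scores divided the 631 sites by region. Among the 346 sites with a median score under 10, 71.4% lay in the 5′ UTR or near the start codon and 1 site lay near the stop codon or in the 3′ UTR. Among the 215 sites of 10 to under 100 the upstream share was 62.8%. Among the 70 sites of at least 100 it was 5.71%, and 65.7% lay in the coding sequence, 12.9% near the stop codon and 15.7% in the 3′ UTR. The 4 exceptions near the start codon were in Bag1, a co-chaperone of Hsp70, with scores of 88, 205 and 375, in Itm2b, a membrane protein, with 173, 178 and 371, in Myo18a, an unconventional myosin, with 156, 123 and 416, and in Hnrnpab with 134, 38 and 110. The 4 genes were named after their values had been seen. Sites of at least 100 that were found only in control had an upstream share of 16.3% (16 of 98), and those found only in OGD/R 3 h had one of 52.8% (149 of 282). With a score of at least 10 in each library, 163 sites in 139 genes remained, of which 23.9% lay near the start codon, 5.52% in the 5′ UTR, 10.4% near the stop codon and 17.2% in the 3′ UTR.

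**Figure D4:**
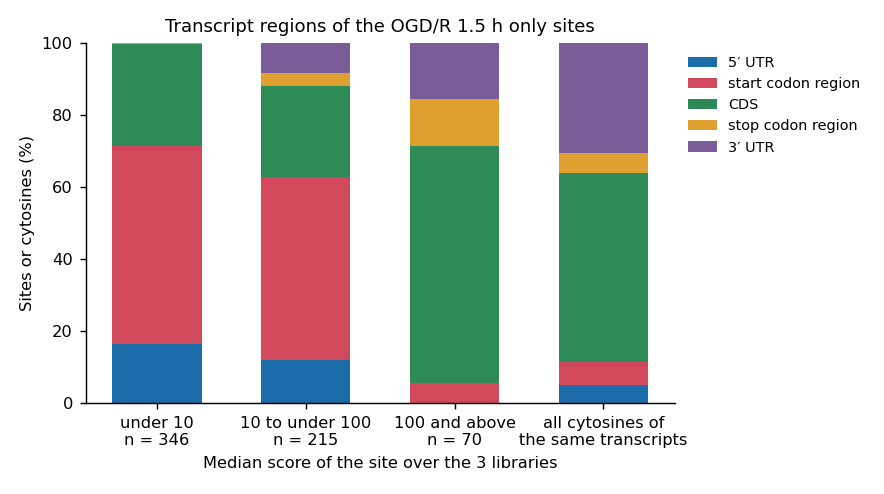
Share (%) of OGD/R 1.5 h only sites in each transcript region, stacked, for sites with a median score under 10 (n = 346), 10 to under 100 (n = 215) and 100 and above (n = 70), beside all cytosines of the same transcripts. Start and stop codon regions reach 100 nt to either side of the codon, and the 5′ UTR and start codon region together fell from 71.4% to 5.71% between the lowest and the highest class.

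The surrounding bases differed along with the score. In the 20 bases around a site, adenine and guanine made up 58.0% at scores under 10, 60.2% at 10 to under 100 and 70.3% at 100 and above, against 49.5% around all cytosines of the same transcripts. Cytosine made up 28.5%, 25.2% and 15.6% in the same order, against 26.7%. At most 2 further cytosines stood in the window of 9.83% of the sites with scores under 10 and in that of 44.3% of the sites with scores of 100 and above. Control-only sites showed the same order, with adenine and guanine at 60.6%, 63.1% and 68.8%. OGD/R 3 h only sites had 51.2%, 50.4% and 52.5%. Over all 631 sites guanine made up 37.9% of the surrounding bases and thymine 14.0%.

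By the next bases, 27.7% of the sites were CG (24.4% to 31.4%), 36.3% CHG (32.6% to 40.1%) and 36.0% CHH (32.3% to 39.8%), where H stands for A, C or U. All cytosines of the transcripts were 11.7% CG, 25.1% CHG and 63.1% CHH, so that 3.79 of 1000 CG cytosines, 2.31 of 1000 CHG cytosines and 0.912 of 1000 CHH cytosines were sites. The CG share was 30.9% at scores under 10 and 15.7% at scores of 100 and above, and the CHG share was 32.9% (114 of 346) in the former and 35 of 70 in the latter. The 369 sites between the start and the stop codon fell on the codon positions much as all cytosines did, with 30.9%, 32.5% and 36.6% on the first, second and last base against 31.3%, 30.9% and 37.8%.

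The sequences known for the 2 writers were rare among the sites. A cytosine followed by NGGG, the guanine-rich pattern of NSUN2, stood at 27 sites (4.28%, 2.96% to 6.15%) and at 2.00% of all cytosines of the same transcripts. It stood at 3.43% of the control-only and 3.28% of the OGD/R 3 h only sites. The highest scores of this kind were in Fam120a (119, 191 and 205), Rassf3 (63, 231 and 177) and Eif6 (176, 86 and 561). With a score of at least 10 in each library the share was 7.36%, 12 of 163 sites. A cytosine followed by TCCA, the pattern of NSUN6 in DNA letters, stood at 6 sites (0.951%, 0.437% to 2.06%) and at 0.696% of all cytosines, and at 0.294% and 0.269% of the control-only and OGD/R 3 h only sites. Only the strand of the gene was searched, and the patterns cannot overlap. All 6 of these sites are printed because they are the complete set that has the NSUN6 pattern, with the site and the 4 bases after it to be read from the capital letter on.
Apoa4 (chr9:46242555-46242575, plus strand): ggaaatgaagCtccagctgac
Ctnnb1 (chr9:120955932-120955952, plus strand): aacggcgcacCtccatgggtg
Krt19 (chr11:100145706-100145726, minus strand): tgtccgtgtcCtccacccgct
Dsp (chr13:38195010-38195030, plus strand): gatcgagaggCtccaggcgga
Tkt (chr14:30549297-30549317, plus strand): tcagcagaagCtccaggccct
Dgat1 (chr15:76511831-76511851, minus strand): gggccgcgggCtccaagcgct
Their scores were 386, 191 and 92 in Apoa4, 123, 458 and 131 in Dsp, which encodes the junction protein desmoplakin, and 343, 51 and 11 in Dgat1, an enzyme of triglyceride synthesis. Ctnnb1, which encodes beta-catenin, had 0, 0 and 28. Krt19, a keratin of simple epithelia, had 2, 10 and 10, and Tkt, transketolase, had 2, 1 and 2. Of the 6 sites, 3 thus had a median score of 10 or less, and 3 lay 2 or 3 nt from a control site (Ctnnb1, Dsp and Dgat1).

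Predicted pairing was given as the chance that the cytosine is unpaired when its transcript is folded in windows of 150 nt. The mean over the 631 sites was 0.321 (95% interval 0.301 to 0.342), against 0.427 for all cytosines of the same transcripts, 0.270 for the control-only and 0.359 for the OGD/R 3 h only sites. Within regions the sites and all cytosines stood at 0.367 and 0.380 in the 5′ UTR, 0.318 and 0.366 near the start codon, 0.314 and 0.419 in the coding sequence and 0.258 and 0.461 in the 3′ UTR. The mean was 0.326 at scores under 10 and 0.251 at scores of 100 and above. Single values ranged widely among the highest scores, from 0.0231 in Apoa1 to 0.803 in Calr. Whether pairing took part in which sites were called was not tested.

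Sites of the other groups often lay a few bases away. Of the 631 sites, 233 (36.9%) had a control site within 10 nt, 193 (30.6%) an OGD/R 3 h site, and 325 (51.5%) either. Within 50 nt the share with either was 76.1%, and 76 sites had one at the next base. Of the 233 sites with a control site that close, 95 (40.8%) had such a control site that was also called in an OGD/R 1.5 h library, while in the other 138 no control site within 10 nt was. For OGD/R 3 h the counts were 60 and 133. At scores of 100 and above, 21 of 70 sites had a site of either group within 10 nt, and the median distance to the nearest one was 34 nt against 9 nt at scores under 10. Another of the 631 sites stood within 10 nt of 89 sites (14.1%), and at scores of at least 10 in each library of 6.13%. The control-only and OGD/R 3 h only sites had another site of their own set that close in 29.5% and 44.2%. Those sets are larger, with 1020 and 1858 sites, which gives more chances of a near one. Of their sites, 52.3% and 36.5% had a site of the other groups within 10 nt, and 76.7% and 64.9% within 50 nt.

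The 439 genes were 2.09% of 21013 annotated protein-coding genes and 25.1% of the 1746 genes with an mRNA site in any OGD/R 1.5 h library. Of them, 308 (70.2%) carried 1 of the sites, 93 carried 2, 22 carried 3, 11 carried 4, 4 carried 5 and 1 carried 7. Most of these mRNAs carried sites in the other groups too. A control site stood in 364 of the 439 genes (82.9%), an OGD/R 3 h site in 315 (71.8%) and either in 397 (90.4%), against 77.1% of the 1307 genes that had OGD/R 1.5 h sites but none of the 631. These sets of genes were not matched by number of sites, and genes with many sites have more chances of one in another group. In 42 genes, with 50 of the sites, no control or OGD/R 3 h library had an mRNA site. By score the first of these 42 were Anapc5 with 2 sites 12 nt apart, Rassf3, a Ras-association domain protein, with 2 sites in its 3′ UTR 8 nt apart, Trabd with 1 site (150, 174 and 228), Mybbp1a, a nucleolar protein, with 1 (103, 58 and 103), and Sf3a1, a splicing factor, with 1 (103, 61 and 162). They were named after their values had been seen. The second Anapc5 site had 194, 156 and 311.

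Atp1b1, the beta subunit of the sodium-potassium pump, carried most sites. Of its 7 sites, 4 lay in the 5′ UTR, 1 near the start codon and 2 in the coding sequence, with median scores of 2 to 116. The gene held 21, 21 and 23 mRNA sites in the control libraries, 19, 17 and 13 in the OGD/R 1.5 h libraries and 27, 25 and 25 in those of OGD/R 3 h. The groups did not overlap and OGD/R 1.5 h had the fewest. Whole libraries showed the same order without overlap, with 3508 to 3749 mRNA sites in OGD/R 1.5 h, 3800 to 4146 in control and 4733 to 5269 in OGD/R 3 h. The highest Atp1b1 site, at chr1:164441597 in the coding sequence, had 70, 116 and 146. The control site nearest to it was 4006 nt away in the genome.

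Apoa4 carried 5 sites, 4 of them in the coding sequence, with median scores of 6 to 807. Its control libraries held 19, 24 and 19 mRNA sites, those of OGD/R 1.5 h 12, 11 and 13 and those of OGD/R 3 h 13, 15 and 17, where OGD/R 1.5 h and OGD/R 3 h overlapped at 13. Hnrnpab, an RNA-binding protein of the hnRNP family, carried 5 sites with median scores of 4 to 110, of which 3 lay in the 5′ UTR. Its control libraries held 22, 18 and 17 sites, those of OGD/R 1.5 h 14, 12 and 12 and those of OGD/R 3 h 12, 11 and 12.

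In Homer2 and Slc7a8 the OGD/R 1.5 h libraries held the most sites, counted with the 5 sites of each gene that the rule placed there alone. Homer2, a scaffold protein of the postsynaptic density that is also made outside neurons, carried 5 sites within 23 nt of each other just before the start codon. Control libraries held 1, 2 and 2 of its mRNA sites and OGD/R 1.5 h libraries 5, 6 and 7, while no OGD/R 3 h library held one. The 5 sites had median scores of 2 to 16, and each had a control site 3 to 8 nt away. Slc7a8, a transporter of neutral amino acids, carried 5 sites with median scores of 2 to 15, of which 4 lay near the start codon. The control libraries held 4, 4 and 5 of its sites, those of OGD/R 1.5 h 12, 13 and 7 and those of OGD/R 3 h 5, 6 and 4. These counts include the sites that chose the genes, which stood by the rule in every OGD/R 1.5 h library and in no other. In Homer2 they were all 5 sites of replicate 1, 5 of 6 in replicate 2 and 5 of 7 in replicate 3. The lead of OGD/R 1.5 h in these genes therefore cannot be read apart from the rule.

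By function, the genes are given as those with one of the 631 sites among those with any OGD/R 1.5 h mRNA site, where the share over all genes was 25.1%. Genes with many sites have more chances to carry one, and no test was made for any list. The respiratory chain and ATP synthase had 16 of 40 genes with 27 sites, of which 23 lay near the start codon and 18 had a median score under 10. They included 4 sites in Uqcrc1, a core subunit of complex III, 3 in Atp5d of the ATP synthase and 2 in Ndufs6 of complex I. The highest scores of the list were in Atp5b, the catalytic beta subunit, with 442, 159 and 116, and at the coding site of Uqcrc1 with 82, 79 and 147. Over the libraries these genes held 48 to 50 sites for control, 76 to 91 for OGD/R 1.5 h and 129 to 137 for OGD/R 3 h. Each OGD/R 1.5 h count includes the 27 sites, which the rule placed in every library of that group and in no other. The rule thus raised OGD/R 1.5 h against the other groups.

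Splicing proteins of the SR and hnRNP families had 10 of 20 genes with 19 sites. Hnrnpab carried 5, Hnrnpu 3, Hnrnpd 2 and Hnrnpm 2. The highest scores were those of Hnrnpab near the start codon, with 134, 38 and 110, and of Sf3a1 in its coding sequence, with 103, 61 and 162, while Srsf1 had 1, 1 and 41 close to the start codon. The libraries held 67 to 78 sites in these genes in control, 76 to 83 in OGD/R 1.5 h and 89 to 104 in OGD/R 3 h. Each OGD/R 1.5 h count again includes the 19 sites that the rule placed in that group alone. The order of OGD/R 1.5 h and control therefore cannot be read from these counts.

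The intestinal epithelium list had 12 of 24 genes with 23 sites, and a median score of 14 against 8 over all 631 sites. Apoa4 carried 5, Krt20 4 and Apoa1 2, and Vil1, the actin bundler of the brush border, carried 2. A coding site of Vil1 had 504, 335 and 187 and lay 5 nt from a control site. Pigr, the receptor that carries immunoglobulin A across epithelium, had 192, 172 and 128 in its 3′ UTR.

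The list of the integrated and endoplasmic reticulum stress responses had 3 of 7 genes and 4 sites, all of high score. They were 2 sites in Calr, of which the second had 149, 140 and 142, and the sites of Canx and Hsp90b1 given above, and their median score was 864.5. No site fell in Hspa5, Xbp1, Pdia3 or Pdia4, the other genes of the list with an OGD/R 1.5 h site. The genes of the list held 33 to 41 sites per library in control, 35 to 39 in OGD/R 1.5 h and 68 to 81 in OGD/R 3 h. Found only in OGD/R 3 h were 27 sites in 5 genes of the list, and only in control 7 sites in 3 genes. Calr alone held 3, 4 and 5 sites in the OGD/R 1.5 h libraries and 21, 21 and 19 in those of OGD/R 3 h. Chaperones had 4 of 15 genes with 5 sites and a median score of 138, among them Hsp90ab1, the cytosolic Hsp90, with 137, 138 and 144, and Bag1 with 2 sites.

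Solute carriers had 12 of 31 genes (38.7%) with 24 sites and mostly low scores, such as the 4 sites of Slc25a3, the mitochondrial phosphate carrier, with medians of 1 to 15. Slc39a7 carried 3. The highest was Slc43a2 with 30, 111 and 168 in its 3′ UTR. Translation initiation and elongation factors had 6 of 22 genes with 7 sites, led by Eif6 and Eef1a1 (116, 55 and 151). Cytosolic ribosomal proteins had 4 of 15 genes with 5 sites, among them 2 in Rps9. Eef1a1 and ribosomal protein genes have processed copies in the genome, so their reads may not be told apart from those of the copies.

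Small GTPases of the Rab and Arf families had 3 of 11 genes with 5 sites and a median score of 2, in Arf5, Arf6 and Rab6a. The antioxidant list had 3 of 10 genes, with 2 sites each in Fth1, the ferritin heavy chain, and Sod1, the cytosolic superoxide dismutase, and 1 in Gpx1. The second Sod1 site, near the stop codon, had 130, 91 and 77. HIF targets and glycolysis had 2 of 6 genes, Aldoa with 5, 6 and 9 and Tpi1 with 38, 1 and 3. Smooth muscle and fibroblast genes had 1 of 4, Myh11 with 61, 61 and 161. Of the m5C enzymes and readers, Tet3, an oxidase of methylcytosine, had 2, 18 and 1, and it was 1 of 2 genes of that list with an OGD/R 1.5 h site. None of the 631 sites fell in the 7 proteasome genes or in the 1 gene of the apoptosis list that had an OGD/R 1.5 h site. Microglial genes had no OGD/R 1.5 h site. The lists left out 364 of the 439 genes, with 505 sites.

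**Figure D5:**
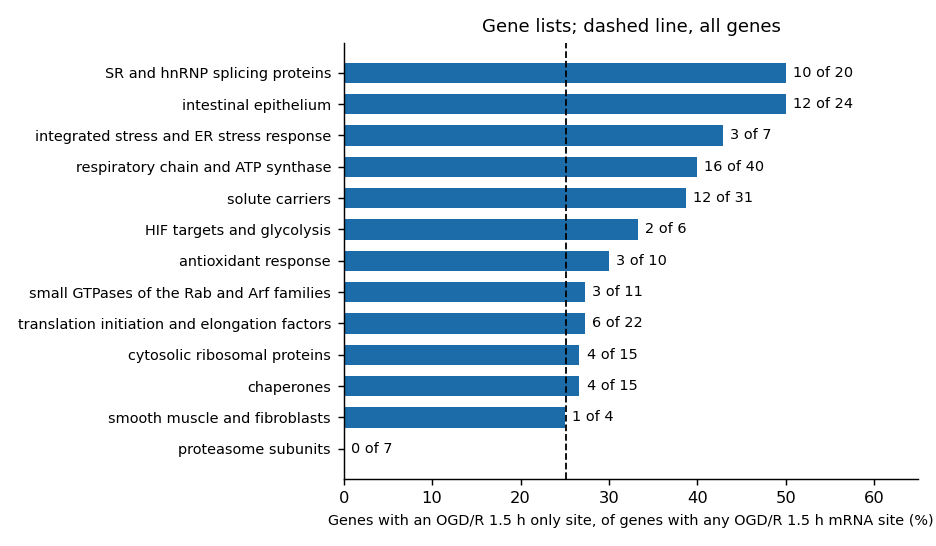
Share (%) of the genes with any OGD/R 1.5 h mRNA site that carried a site found only in OGD/R 1.5 h, for each list with at least 4 such genes, with the counts printed at the bars. The dashed line is the share over all genes, 25.1%, and the lists ran from 0 of 7 proteasome genes to 10 of 20 splicing genes.

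By chromosome, the share of the 631 sites is set beside the share of all mRNA sites of any OGD/R 1.5 h library. Chromosome 11 held most of both, 66 of the 631 sites (10.5%) and 10.6% of the sites of any OGD/R 1.5 h library. The shares were 2.69% against 4.49% on chromosome 3, 2.38% against 4.36% on chromosome 12 and 12 of the 631 sites against 3.38% on chromosome 13. The X chromosome held 13 sites (2.06% against 1.12%), and 1 site lay in the mitochondrial genome, in COX1, with 102, 182 and 85.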

How the data were processed

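m5C sites were taken from the deposited site lists of 9 bisulfite libraries, 3 for each of the 3 labelled groups. According to the study's methods the authors trimmed reads with Cutadapt 1.9.3, used meRanGh for alignment to mm10, and ran meRanCall on each library, with limits on level and coverage. The deposited files give each site a score, whose formula, and with it any scaling to depth, is not given in the sources used here. No level, coverage or read total was used, so depth is unknown. Weakly covered sites can be missed in a library, and a site counted as absent may have had too few reads. The 9 mock libraries were not analysed here by themselves, and the study's methods do not say whether they entered the site calls.

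Sites were placed on RefSeq transcripts (NM accessions and mitochondrial coding sequences) of GRCm38.p6, where all 25890 distinct sites fell on a cytosine, with Python 3.11.15, pandas 2.3.3, numpy 2.4.6, pysam 0.24.0 and samtools 1.23.1. Of the 631 windows, 598 lay in 1 exon, and the windows are genomic. Unpaired probabilities came from ViennaRNA 2.7.2 in windows of 150 nt with pairs up to 100 nt apart. Shares have 95% Wilson intervals (scipy 1.17.1). The steps were tested on simulated data. No pair of libraries had identical files.

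The sites and gene lists were chosen with earlier results of these data known. Named were the 5 genes with most sites, the 10 highest-scoring sites (1 per gene), the 3 lowest, the 3 highest just outside the rule, and up to 4 genes per list. A few of these are not reported here. Further genes are said to have been named after their values were seen or serve as examples of a class. The alternatives were other rules for a call, a score of at least 10, sites with no other site within 10 nt, 50 nt around codons or to a near site, another folding window, and each library left out. Taking 1 site per gene, the one with the highest median score, was added after the data had been seen. No p-value was computed.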

Additional observations from a re-analysis of the deposited data

How the results depend on the processing

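No paired analysis was possible because none of the results came from a test, and the labels do not say that libraries with the same replicate number share a culture or batch. A value was taken as kept where a count stayed within 1.5 times the main count, a share within the 95% Wilson interval of the main share, an unpaired probability within its 95% interval, and a median score within 1 SD over the 3 libraries. Over 252 recomputed values, 204 were kept in this sense and 48 were not. Some moves were fixed in direction by the rule itself, as said here or below, and for the others the cause was not tested. A looser call rule can only add sites and genes, and a stricter one can only remove them. The score minimum fixed the rise of the median score.

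Calls in at least 2 of the 3 OGD/R 1.5 h libraries gave 1272 sites in 752 genes, 61.2% of the genes with 1 site, 8.10% in the 5′ UTR, 32.1% near the start codon, 49.1% in the coding sequence, 4.72% near the stop codon, a median score of 8 and 85.5% of the genes with a site in another group. Allowing 1 other library, 59.6% lay within 10 nt of a site of the other groups. The 127 sites added by this rule were themselves sites of the other groups and counted as near, which fixed the rise in advance. A score of at least 10 in each library gave 163 sites in 139 genes, 85.6% of the genes with 1 site, 22.1% CG, 41.1% CHG, 5.52% in the 5′ UTR, 23.9% near the start codon, 42.9% in the coding sequence, 10.4% near the stop codon, 17.2% in the 3′ UTR, a median score of 73.3, 6.13% near another of the sites, 41.1% near a site of the other groups, 7.36% with NGGG and an unpaired probability of 0.300. With no other site within 10 nt there were 328 sites in 285 genes, 86.7% of the genes with 1 site, 40.2% CHG, 31.4% CHH, 4.57% near the stop codon, a median score of 11.7 and 40.2% near a site of the other groups. With 50 nt around the codons, the 5′ UTR held 20.3%, the start codon region 29.5% and the coding sequence 43.4%. A narrower start codon region can only lose sites to its neighbours. Within 50 nt, 76.1% had a site of the other groups, and the wider distance could only raise this share. A folding window of 100 nt gave 0.351. With 1 site per gene, the one with the highest median score, the median score was 11. This choice keeps the higher scores, so the rise does not show the effect of sites that share a gene.

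Leaving out each library in turn gave 636 to 865 sites in 442 to 570 genes, 10.3% to 13.4% in the 5′ UTR, 39.0% to 47.9% near the start codon, 31.3% to 41.4% in the coding sequence and 87.2% to 90.6% of the genes with a site in another group. The lowest start codon share came without OGD/R 1.5 h replicate 1. Without any 1 control or OGD/R 3 h library, all values were kept in the above sense.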
